A study of Mus musculus with 16 samples.

Results

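The genes Cdh1, Epcam, Esrp1, Ap1m2, Cldn3, Cldn4, Cldn6, Cldn7 and Ocln, which build or serve the junctions of epithelial cells, were followed across 16 whole-genome arrays of reprogrammed mouse cells. Members were taken by name: every probe whose gene name in the scanner files equals 1 of the 9 was used, which gave 9 of 28095 gene names and 12 of the 41174 probes. Of these, 10 were well above background, the scanner's own flag for a spot brighter than its surroundings, on at least 1 array and were tested among 31415 such probes. The arrays held 1 sample of mouse embryonic fibroblasts (MEFs, C57BL/6), the embryonic stem (ES) cell lines B6ES (C57BL/6) and TT2 (C57BL/6 x CBA), and the induced pluripotent stem (iPS) line 20D17 (C57BL/6 x DBA), made with retrovirus vectors. The other 12 were C57BL/6 clones made from MEFs with a human artificial chromosome (HAC), an extra chromosome that stays separate from those of the host. The iHAC1-iPS clones (1-A3, 1-B, and also 1-C3 and 1-D6) carry iHAC1, with 2 copies each of 4 factors (Klf4, c-Myc, Sox2 and Oct4) under the CAG promoter, which is active in most cell types. Clones 2-B1, 2-C6, 2-E and 2-N, the iHAC2-iPS cells, carry iHAC2, which adds 2 more copies of Oct4 and a p53 knockdown (KD) cassette under the H1 promoter. The iHAC-free iPS cells had lost that vector: F-B1 came from 2-B1, F-C5 from 2-C6, F-E4 from 2-E and F-N7 from 2-N. The reprogramming protocol of the iHAC clones also included transfection of microRNA mimics, and these clones and the ES cells were kept on fibroblast feeder layers. Each array is 1 clone or line, so p-values measure the spread between clones.

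When fibroblasts are reprogrammed they pass from a mesenchymal state, with loose single cells, to an epithelial state, in which cells are sealed to each other in compact colonies. Adherens junctions tie neighbouring cells together through cadherins, and tight junctions close the space between them with strands of claudins and occludin. Mouse ES cells are themselves epithelial in this sense and carry E-cadherin at their contacts. Factors of the Snail and Zeb families hold such genes down in mesenchymal cells by binding E-boxes, short motifs near the start of the gene. Loss of that repression is known as part of the mesenchymal to epithelial transition.

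The upstream sequences of 3 members are shown because they hold the E-box CAGGTG more than once, counting its other strand, CACCTG, as well, and because these genes are also described by their probes below. The second start of Ocln also held 2 in such a stretch and is not printed. They are the 250 bases before the RefSeq start of the gene on GRCm38.p6, written along the strand of the gene from 5′ to 3′, with each E-box in capitals. Ap1m2 lies on the minus strand at chr9:21312334-21312583, Epcam on the plus strand at chr17:87635729-87635978 and the second RefSeq start of Cldn7 on the plus strand at chr11:69965171-69965420.
Ap1m2: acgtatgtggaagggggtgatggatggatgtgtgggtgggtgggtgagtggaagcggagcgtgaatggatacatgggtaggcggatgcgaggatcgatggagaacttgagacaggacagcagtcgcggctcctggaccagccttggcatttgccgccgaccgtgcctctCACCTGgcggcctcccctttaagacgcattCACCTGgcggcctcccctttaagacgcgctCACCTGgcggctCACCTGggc
Epcam: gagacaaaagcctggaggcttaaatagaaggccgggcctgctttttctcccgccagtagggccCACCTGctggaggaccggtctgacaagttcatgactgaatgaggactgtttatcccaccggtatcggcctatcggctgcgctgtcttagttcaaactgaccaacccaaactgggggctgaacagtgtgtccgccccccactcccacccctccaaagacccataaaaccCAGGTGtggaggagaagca
Cldn7: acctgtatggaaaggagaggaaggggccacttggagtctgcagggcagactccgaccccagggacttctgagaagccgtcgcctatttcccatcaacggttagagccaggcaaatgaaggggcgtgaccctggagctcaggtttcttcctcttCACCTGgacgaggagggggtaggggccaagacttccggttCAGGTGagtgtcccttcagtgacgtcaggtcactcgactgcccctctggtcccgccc
Ap1m2 held 4 E-boxes, the first bases of which lay at -81, -51, -21 and -9 from the start, in a stretch that repeats itself. Epcam held 2, at -187 and -19, and Cldn7 held 2, at -97 and -57.

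RefSeq promoters, counted here from 250 bases before to 50 bases after the start, were matched for 7 of the 9 genes, with 9 starts in all. Cdh1 and Esrp1 were not matched. An E-box on either strand was found in 8 of the 9 promoters, the first Cldn7 start being the one without, and in 6 it was found more than once. Of all 32851 promoters of this length, 20.2% held it and 2.88% held it more than once, without matching for base composition. Cldn4 held E-boxes at -14 and 12, Cldn6 at -93 and 41, Cldn3 at 32, the first start of Ocln at 8 and its second start at -213 and -68. The windows of the Ocln starts share 80 bases, and the E-box at 8 of the first is the one at -213 of the second, so the 16 E-boxes counted over windows are 15 sites. The motif GGGTG, the core that Klf factors bind, was in 8 of the 9 promoters against 57.5% of all promoters. AACCGG, bound by Grainyhead-like factors, was in 2 of the 9, those of the second Cldn7 and second Ocln starts, against 6.83% of all. Both strands were searched for each, and neighbouring matches of different motifs may share end bases. These matches are letters in a window and were not tested as binding sites.

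Each gene was read by a 60-base probe, and where a gene had more than 1 the brighter is used below. Positions are those of the scanner files on mm9. The probes of Epcam (chr17:88048972-88049800), Ap1m2 (chr9:21102750-21103762) and Cldn7 (chr11:69780780-69781089) each cover 60 bases of transcript spread over a longer stretch of the genome, so they read spliced RNA. Their sequences are given because in iHAC1-iPS cells Ap1m2 was lowest against ES cells and Epcam, like Cldn3 and Cldn7, was measured in every clone. Cldn7 also followed the mean of the 9 genes most closely over the 16 arrays.
Epcam probe: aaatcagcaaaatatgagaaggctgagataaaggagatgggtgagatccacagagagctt
Ap1m2 probe: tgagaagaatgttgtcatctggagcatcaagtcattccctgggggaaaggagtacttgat
Cldn7 probe: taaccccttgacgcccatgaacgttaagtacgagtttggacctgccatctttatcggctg
The other probes lie at chr8:109193812-109193871 for Cdh1, printed in 10 spots of each array, chr4:11259829-11259888 for Esrp1, chr17:23819027-23819086 for Cldn6 and chr13:101268114-101268173 for Ocln. Cldn3 (chr5:135463179-135463238) and Cldn4 (chr5:135421347-135421406) are neighbours, with 41773 bases between their probes. A second probe of Esrp1 and a second probe of Ocln were well above background on 0 of 16 arrays. A second probe of Ap1m2, designed on another transcript (chr9:21097866-21097925), was well above background in 2-E alone, and these probes give no level for most arrays.

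Slides 1 and 2, with MEFs, ES cells, 20D17 and iHAC1-iPS cells, were scanned in a first session, and slides 3 and 4, with iHAC2-iPS and iHAC-free iPS cells, in a second, so for comparisons across these sets the session and the group cannot be told apart. Spots well above background made up 54.2% to 65.8% of each array, with 0 saturated. The number of arrays, 2 to 4 in a tested group, limits the precision. Fibroblast genes were read on every array. The signals of 11 of them were summed before log2 was taken, so the brightest genes weigh most. The log2 of this sum was 8.51 in MEFs, 5.88 to 7.36 in ES cells and 8.22 in 20D17. It was 7.73 to 9.03 in iHAC1-iPS, 6.70 to 8.29 in iHAC2-iPS and 7.42 to 8.36 in iHAC-free iPS cells. Feeder cells in the RNA, less RNA per cell and a different share of epithelial cells in a culture cannot be told apart here, and the part of fibroblast RNA in the results was not tested.

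In MEFs the genes were low or not measured, and in ES cells all 9 were measured and higher. Levels are log2 signals, with 0 at the array's 75th percentile. With 1 MEF array there is no test, and a size of 4-fold is used. Cdh1, which codes for E-cadherin, the adhesion molecule of adherens junctions, was at -3.48 in MEFs, 4.48 in B6ES and 3.77 in TT2, a mean of 195-fold over MEFs. Epcam, a surface adhesion protein of epithelia, was at -4.20 in MEFs and at 3.39 and 3.25 in B6ES and TT2, 184-fold over MEFs. Both were well above background in MEFs, at levels far under those of ES cells. Esrp1, an RNA-binding protein that directs epithelial splicing, was not well above background in MEFs and was at least 38.2-fold higher in ES cells. Ap1m2, the epithelial subunit of a clathrin adaptor that sorts proteins to the basolateral membrane, was likewise at least 140-fold higher. Ocln, the tight junction protein occludin, was at least 9.05-fold higher. These bounds set the ES mean against the lowest signal well above background on the MEF array, or the probe's own signal where higher.

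Among the claudins the gain from MEFs to ES cells ran from 4.62-fold for Cldn3 and 12.4-fold for Cldn4 to 70.6-fold for Cldn6 and 70.8-fold for Cldn7. Claudins form the strands of tight junctions, Cldn4 and Cldn7 in many simple epithelia and Cldn6 mainly in embryonic ones. In all, 9 of 9 genes were at least 4-fold higher in ES cells than in MEFs, against 7.33% of all tested probes. The same held for 9 of 9 in 20D17 (6.65% of all probes), 9 of 9 in iHAC2-iPS (9.81%) and 9 of 9 in iHAC-free iPS cells (8.38%), by group means. These comparisons share the MEF array. In iHAC1-iPS cells Epcam, at 13.6-fold, and Esrp1, at 6.08-fold, were the 2 genes whose mean passed 4-fold upward (3.2% of all probes). With each signal that was not well above background set at the floor, the lowest signal of its array that was, or at its own value where higher, Esrp1 fell to 3.05-fold and Cdh1 moved from 3.49-fold to 5.03-fold. By single arrays and signals as read, 6 genes passed 4-fold in 1-B, 4 in 1-C3, 1 in 1-D6 and 0 in 1-A3. The share of all probes on each array was not counted. Of the 6, Ocln passed at 4.32-fold against an MEF signal of -6.18 that was not well above background. With the MEF floor of -6.00 it fell under 4-fold. Cldn4 was the 1 gene at least 4-fold lower in iHAC1-iPS cells than in MEFs (6.96% of all probes), 3.08 lower on the log2 scale, and 1.70 lower with the floor.

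**Figure D1:**
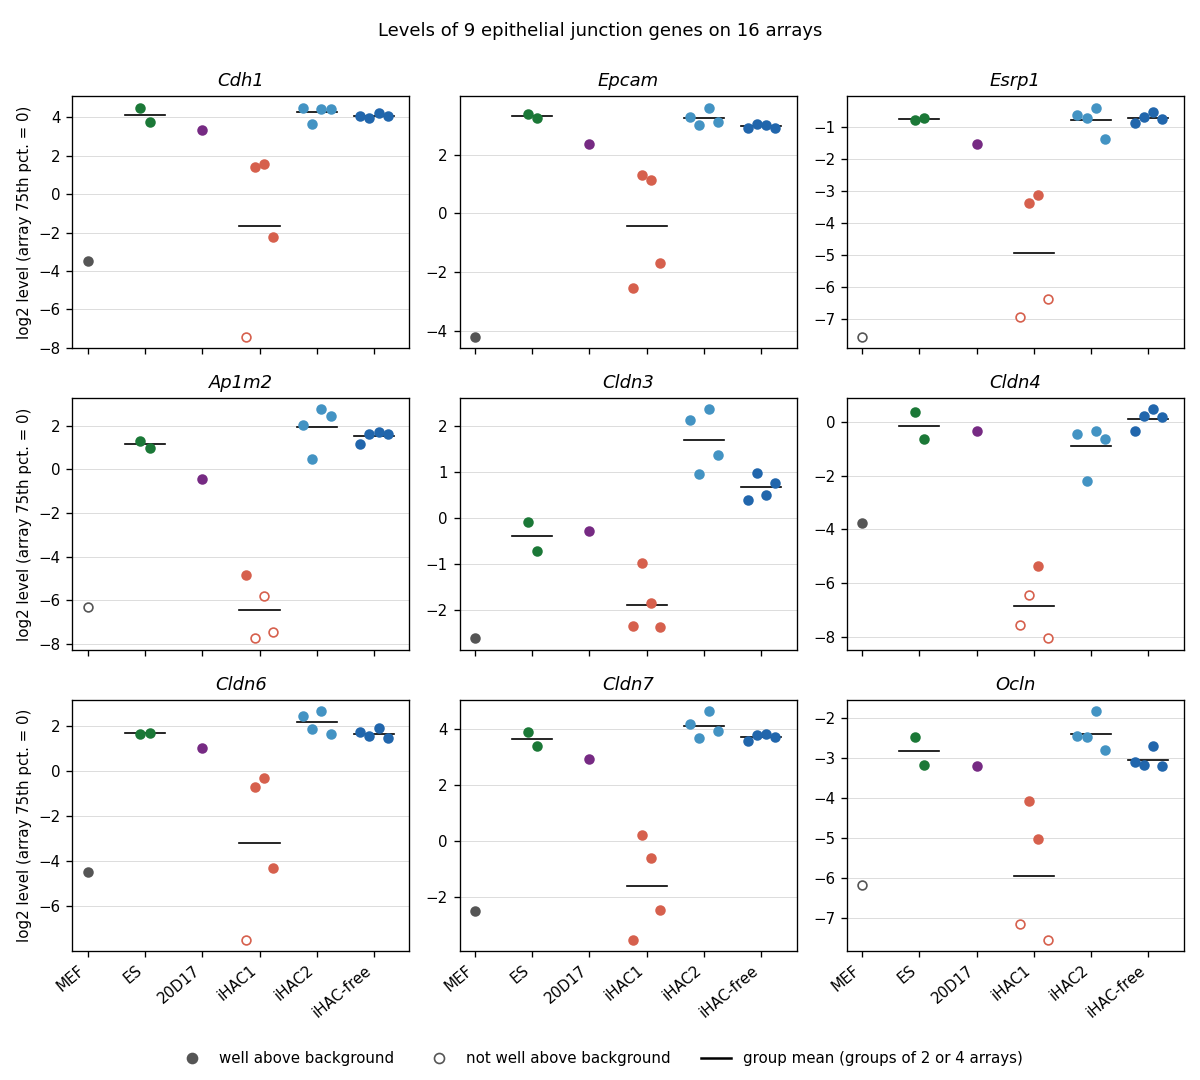
Log2 level of the 9 genes on each of the 16 arrays (y axis, 0 is the 75th percentile of the array) by group (x axis); filled points are well above background, open points are not, and lines are means of groups of 2 or 4 arrays. The 4 iHAC1-iPS clones lie under both ES lines in every panel and split into a higher and a lower pair in 6 panels (Cdh1, Epcam, Esrp1, Cldn6, Cldn7 and Ocln), while the iHAC-free iPS lines lie close together.

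All 9 genes lay lower in iHAC1-iPS cells than in ES lines, and no iHAC1-iPS clone reached either ES line for any of them. By limma with Benjamini-Hochberg adjustment over all tested probes, 9 of 9 were called lower, that is with an adjusted p under 0.05 and a difference of at least 2-fold, against 7.39% of all probes. The groups did not overlap in 9 of 9, against 25.5% of probes that lay lower without overlap. The median log2 difference of the 9 was -4.86, and that of all tested probes was 0.02.

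The widest difference was that of Ap1m2. Its log2 level was 1.29 in B6ES and 0.98 in TT2, and -4.82 in 1-A3, -7.74 in 1-B, -5.82 in 1-C3 and -7.47 in 1-D6. Of these clones 1-A3 alone was well above background, so that the size of the difference, -7.60 as log2 (standard error 0.75, limma's adjusted p = 9.60e-05), is not fully measured, and was -6.52 with the floor. Cldn4 behaved much the same, at 0.35 in B6ES and -0.62 in TT2 against -7.57 in 1-A3, -6.43 in 1-B, -5.35 in 1-C3 and -8.05 in 1-D6. It was well above background in 1-C3 alone, and differed by -6.71 (standard error 0.69, limma's adjusted p = 1.12e-04), or by -5.33 with the floor. No iHAC1-iPS clone held either gene above a few percent of its ES level.

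Cdh1 split the clones instead. It was at 1.39 in 1-B and 1.56 in 1-C3, at -2.25 in 1-D6 and at -7.42 in 1-A3, where it was not well above background and lay under the MEF level of -3.48. The mean difference from ES lines was -5.80 (standard error 1.83, limma's adjusted p = 0.0410), a large change with a large spread, and -5.28 with the floor. Cldn6 had the same order, with -0.30 in 1-C3, -0.70 in 1-B, -4.29 in 1-D6 and -7.49 in 1-A3, against 1.63 and 1.70 in the ES lines, and a difference of -4.86 (standard error 1.48, limma's adjusted p = 0.0353), or -4.31 with the floor. In both genes 1-B and 1-C3 stood nearest to the ES lines and the other clones far below.

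Epcam was well above background in all 4 clones, at 1.32 in 1-B, 1.15 in 1-C3, -1.70 in 1-D6 and -2.53 in 1-A3, and the difference from the ES lines was -3.76 (standard error 0.86, limma's adjusted p = 0.00989). Cldn7 was also measured in all 4, at 0.21 in 1-B, -0.61 in 1-C3, -2.47 in 1-D6 and -3.54 in 1-A3, against 3.87 in B6ES and 3.39 in TT2. It differed by -5.23 (standard error 0.77, limma's adjusted p = 9.89e-04). Esrp1 was measured in 1-B, at -3.37, and in 1-C3, at -3.10, but not in 1-A3 or 1-D6, and was at -0.78 and -0.71 in the ES lines. Ocln followed Esrp1, with -4.07 in 1-B and -5.02 in 1-C3 against -2.48 in B6ES and -3.16 in TT2, and no signal well above background in the other clones. Their differences were -4.19 for Esrp1 (limma's adjusted p = 0.00651) and -3.12 for Ocln (limma's adjusted p = 0.0136), as the scanner read the unmeasured signals. With the floor they were -3.64 and -2.23.

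Cldn3 changed least. It was at -0.97 in 1-B, -1.85 in 1-C3, -2.35 in 1-A3 and -2.38 in 1-D6, against -0.09 in B6ES and -0.72 in TT2, and the difference of -1.48 (standard error 0.44, limma's adjusted p = 0.0333) is 2.79-fold. All 4 clones lay above the MEF level of -2.61. Its chromosomal neighbour Cldn4 was measured in 1 of the 4 clones and differed from ES cells by -5.33 with the floor, and the difference between both genes was not tested.

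As a share of the mean ES level, the median over the 9 genes was 1.38% in 1-A3, 1.62% in 1-D6, 16.3% in 1-B and 19.6% in 1-C3. The latter pair held the highest levels of the 4 clones in 8 of 9 genes, and Ap1m2 was the exception. In 1-B, Cldn3 was at 67.6% of the ES mean, Ocln at 42%, Epcam at 25.0%, Cldn6 at 19.5%, Esrp1 at 16.3%, Cdh1 at 15.1% and Cldn7 at 9.33%, while Cldn4 was at most 2.57% and Ap1m2 at most 1.06%. In 1-C3 the shares ran from 36.8% for Cldn3 and 25.6% for Cldn6 to 5.30% for Cldn7, with Cldn4 at 2.70% and Ap1m2 at most 0.98%. So in 1-B and 1-C3 the levels of Cldn4 and Ap1m2 were low against ES cells, while the other 7 genes lay nearer to their ES levels. Cldn4 lay under its MEF level in both clones, at 0.334-fold of it in 1-C3, where it was measured. Clones were not grouped for a test, and these values are a description of single arrays.

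**Figure D2:**
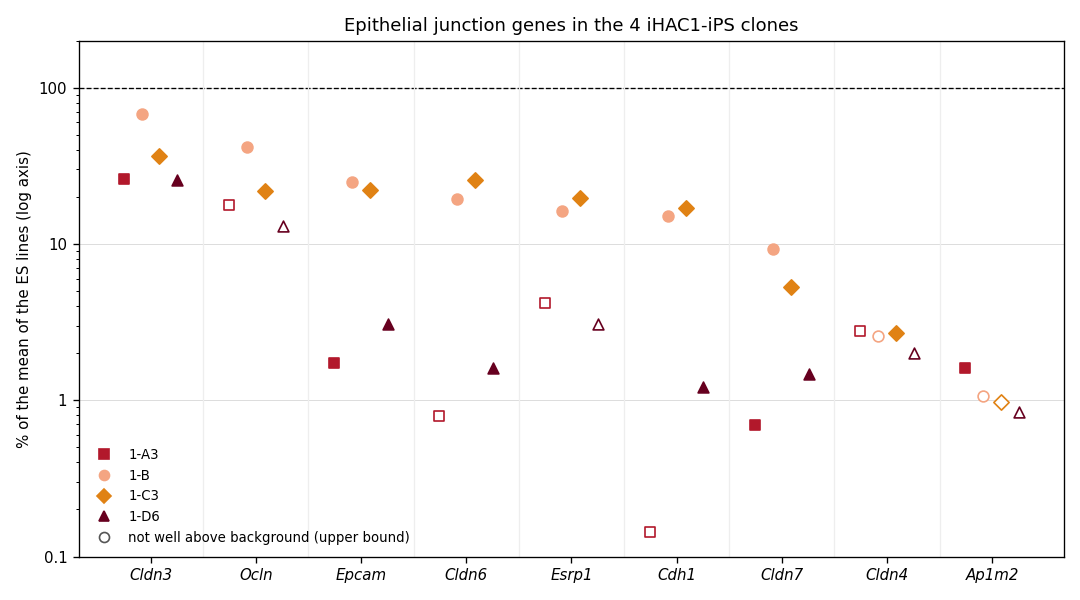
Level of each gene in the 4 iHAC1-iPS clones as a percentage of the mean of B6ES and TT2 (y axis, log scale; the dashed line is the ES mean). Open symbols are signals not well above background, drawn at the upper bound; 1-B and 1-C3 lie above 1-A3 and 1-D6 for 7 genes, and all 4 clones lie at or under 2.75% for Cldn4 and Ap1m2.

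The call against ES cells rests on few ES arrays, and both lay on slide 2 with 1-D6, while the other iHAC1-iPS clones lay on slide 1. With slide as a block 6 of the 9 were called, and Cdh1 (limma's adjusted p = 0.191), Cldn3 (limma's adjusted p = 0.0904) and Cldn6 (limma's adjusted p = 0.128) were not. In a fit of iHAC1-iPS and ES arrays alone, limma called 3 of the 9 (Ap1m2, Cldn4 and Cldn7), the same 3 were called without B6ES, and 5 were called without TT2. On slide 2, which held 1-D6 and both ES lines, all 9 genes were lower in 1-D6, with log2 differences from -1.97 (Cldn3) to -8.60 (Ap1m2, not measured in 1-D6).

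Against the larger groups the same 9 genes were called. Compared with iHAC2-iPS cells limma called 9 of 9 lower in iHAC1-iPS cells, against 11.3% of all probes, with a median log2 difference of -5.35. Compared with iHAC-free iPS cells it called 9 of 9 lower, against 11.2%, with a median of -4.85. The difference from iHAC-free iPS cells was -7.97 for Ap1m2 (limma's adjusted p = 8.66e-06), -6.97 for Cldn4 (limma's adjusted p = 1.11e-05) and -2.54 for Cldn3 (limma's adjusted p = 3.26e-04). With the floor that of Ap1m2 was -6.90 and that of Cldn4 -5.59. These counts were 9 whichever single array was left out, but these comparisons cross the scan sessions.

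In iHAC2-iPS cells the group means lay near ES levels, except for Cldn3. Single clones lay further off, with Ap1m2 at 305% of the ES mean in 2-E and Cldn4 at 24.2% in 2-C6. Cldn3 was at 2.13 in 2-B1, 0.95 in 2-C6, 2.35 in 2-E and 1.36 in 2-N, all above both ES lines, and was the 1 gene of 9 called higher by limma (3.45% of all probes), with a log2 difference of 2.10 (standard error 0.44, and by limma an adjusted p = 0.0166). It was not called in a fit of the compared groups alone, nor without B6ES or without TT2. The other 8 differed from ES cells by -0.76 (Cldn4) to 0.78 (Ap1m2), with no call. A missed threshold does not show that they were equal, since the standard errors of the shared fit, 0.69 to 1.83 for these 8, carry the spread of the iHAC1-iPS clones.

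The iHAC2-iPS clones also differed among themselves. The clone 2-E held the highest level in 8 of 9 genes and 2-C6 the lowest in 6. The share of all probes with these orders was not counted. Because the 9 genes moved together across arrays, these counts do not rest on independent genes. Ap1m2 was at 2.74 in 2-E, 2.43 in 2-N, 2.01 in 2-B1 and 0.49 in 2-C6. Cldn4 was at -0.32 in 2-E, -0.44 in 2-B1, -0.62 in 2-N and -2.18 in 2-C6. In both genes 2-C6 stood under the other clones by more than those differed among themselves.

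In iHAC-free iPS lines none of the 9 genes was called against ES cells by limma, where 0.366% of all probes were called in either direction. At an unadjusted p under 0.05 there was 1, Cldn3, with a log2 difference of 1.06 (standard error 0.44, limma's adjusted p = 0.205). The share of all probes at the unadjusted threshold was not counted. The levels of Cldn3 were 0.40 in F-B1, 0.98 in F-C5, 0.49 in F-E4 and 0.76 in F-N7. Cldn3 therefore lay above both ES lines on all 8 arrays of the second session, and group and session cannot be told apart for it. The other 8 differed from ES cells by -0.35 (Epcam) to 0.38 (Ap1m2).

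The iHAC-free lines were close to each other. Cdh1 was at 4.06 in F-B1, 3.94 in F-C5, 4.23 in F-E4 and 4.05 in F-N7, a standard deviation (SD) of 0.118 (n = 4) against 0.407 (n = 4) in iHAC2-iPS cells. Epcam had an SD of 0.0695 against 0.256, and Ap1m2 0.234 against 0.999. The SD was lower in iHAC-free than in iHAC2-iPS cells in 9 of 9 genes, and also in 80.7% of all tested probes, so that most of the transcriptome shared this order.

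Between iHAC2-iPS cells and the iHAC-free lines, which shared slides, limma called 0 of 9 genes, against 0.77% of all probes in either direction, and 1 at an unadjusted p under 0.05. That was Cldn3, with a higher iHAC2-iPS mean, by 1.04 (standard error 0.36, limma's adjusted p = 0.168). Here too the share of all probes at the unadjusted threshold was not counted. Blocking on the clone of origin also gave 0 called genes. Cldn3 was higher in 2-B1 than in F-B1 by 1.73, in 2-E than in F-E4 by 1.86 and in 2-N than in F-N7 by 0.60, and in 2-C6 it differed from F-C5 by -0.03. Cldn4 was lower in each of the 4 parents than in the derived line, by -0.09 in 2-B1 and by -2.38 in 2-C6. Ocln was higher in each parent, by 0.38 (2-N) to 0.89 (2-E), and so was Cldn6, by 0.17 (2-N) to 0.78 (2-E). Over the 9 genes in the 4 clone pairs the parent was higher in 25 of 36 values. F-E4, derived from 2-E, held the highest level of the 4 lines in 7 of 9 genes. The share of all probes was counted for neither. Both counts rest on genes that moved together, not on independent observations. Over tested probes, the deviations of 2-E and F-E4 from their group means correlated at 0.034 (Pearson's r).

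**Figure D3:**
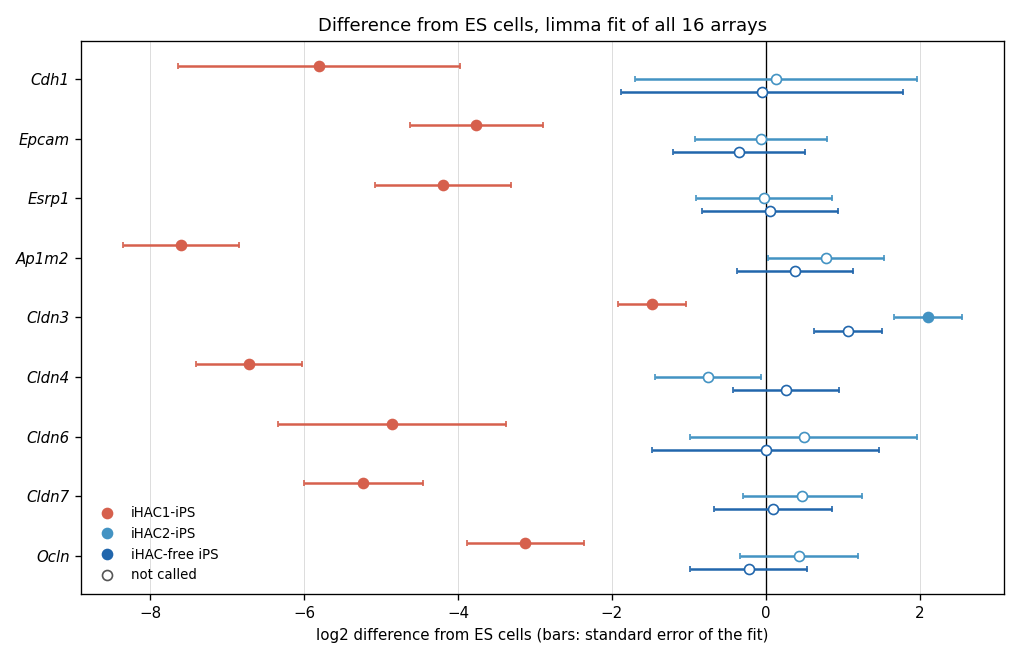
Log2 difference from ES cells (x axis) for each gene (y axis) in iHAC1-iPS, iHAC2-iPS and iHAC-free iPS cells, with the standard error of the limma fit of all 16 arrays as bars; filled points were called and open points were not, and signals not well above background entered as read. The 9 iHAC1-iPS points lie between -7.60 and -1.48, and Cldn3 in iHAC2-iPS cells, at 2.10, is the 1 other filled point.

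Other genes of the same structures were taken from lists. Of 22 other tight junction and polarity genes tested, limma called 11 lower and 2 higher in iHAC1-iPS cells against ES lines, where 7.39% of all probes were called lower and 6.88% higher. The median log2 difference was -1.31. Without B6ES 3 were called lower and 0 higher, and against iHAC-free iPS cells 12 were called lower and 2 higher. The 3 with the most negative fitted differences were Crb3, a membrane organizer of apical polarity, Marveld2, which codes for tricellulin at the corners where cells meet, and Marveld3, a relative of occludin. Crb3 and Marveld3 were well above background in 2 of the 4 iHAC1-iPS clones and Marveld2 in 1, and with the floor the differences were -4.45 for Crb3 and -3.42 for both Marveld2 and Marveld3. Higher were Cldn11, a claudin of myelin and of the testis, at least 11.4-fold because no ES array measured it, and Cldn10, by 1.56. Neither was called under normexp background correction, without B6ES or without TT2. Of the genes named here, Marveld2 was also called without B6ES, whereas Crb3 (limma's adjusted p = 0.105) and Marveld3 (limma's adjusted p = 0.0659) were not.

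Of 16 other adherens junction and desmosome genes, 5 were called lower and 1 higher, with a median of -0.83. Without B6ES 3 were called lower and 0 higher. Pkp3, a plakophilin of desmosomes measured in 2 of the 4 clones, was 46.5-fold lower with the floor. Evpl and Ppl, which code for the plakins envoplakin and periplakin, differed by -3.42 and -2.93, with Ppl measured in 3 of the 4. Pkp1, another plakophilin, was higher by 2.37, but by 1.63 and uncalled without B6ES. Against iHAC-free iPS cells 7 were called lower and 1 higher.

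Of 19 other epithelial genes, 16 were called lower and 0 higher than in ES cells, with a median of -3.59. Without B6ES 9 were called lower, and against iHAC-free iPS cells 17 were. Grhl2, a Grainyhead-like transcription factor of epithelia, was measured in 3 of the 4 iHAC1-iPS clones and 56.1-fold lower with the floor. Elf3, an epithelial Ets factor measured in 2, was 28.9-fold lower, and Rab25, a small GTPase of epithelial recycling endosomes measured in 1, was 40.4-fold lower, both with the floor. Esrp2, the paralog of Esrp1, differed by -2.82 (limma's adjusted p = 0.00185) and was well above background on all 16 arrays, MEFs included.

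Among 11 transcription factors that repress epithelial genes, 2 were called higher and 1 lower, with a median of 0.52. Zeb1 was at 1.68 in MEFs, -0.54 in B6ES and -0.05 in TT2, and at 1.49, 1.77, 1.26 and 1.51 in 1-A3, 1-B, 1-C3 and 1-D6. It was thus near the MEF level in all 4 iHAC1-iPS clones and higher than in ES cells by 1.80 (limma's adjusted p = 0.00178). Zeb2 was at 1.61 in 1-A3 and 1.54 in 1-D6, near the 1.75 of MEFs, and lower in 1-C3, at 0.80, and in 1-B, at -0.52, against -1.42 in B6ES and -0.36 in TT2, with a mean difference of 1.75 (limma's adjusted p = 0.0316). Without B6ES the difference of Zeb1 was 1.56 (limma's adjusted p = 0.0355) and that of Zeb2 1.22 (limma's adjusted p = 0.297), and Zeb2 was also not called without 1-A3 or without 1-D6. Against iHAC-free iPS cells both were called higher, Zeb1 by 1.68 and Zeb2 by 2.05. Snai1 and Snai2 differed by 0.48 and 0.67 and were not called. Snai3 was at least 5.82-fold lower, since no iHAC1-iPS array measured it, and under normexp background correction it was not called.

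Genes that are not restricted to epithelia, some of them counterparts of members, were given beside the members. Ap1m1, the widely expressed counterpart of Ap1m2, was between 3.16 and 3.45 in iHAC1-iPS clones, 2.95 in B6ES, 2.41 in TT2 and 3.53 in MEFs, and was not called against ES cells. Against iHAC-free iPS cells it was higher by 1.30 (limma's adjusted p = 0.00170). Cdh2, the N-cadherin of mesenchymal cells, was at 0.22 to 0.89 in iHAC1-iPS clones, -1.29 in B6ES and -0.32 in TT2, and missed the threshold against ES cells at 1.31 (limma's adjusted p = 0.0611). It was higher than in iHAC-free iPS cells by 1.97 (limma's adjusted p = 0.00183). Of the 5 genes of this list, limma called 1, the mesenchymal cadherin gene Cdh11, lower than in ES cells, by 1.12, and 0 higher, with 1 higher under quantile normalization and 2 under normexp. The call of Cdh11 was lost without B6ES and without TT2.

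**Figure D4:**
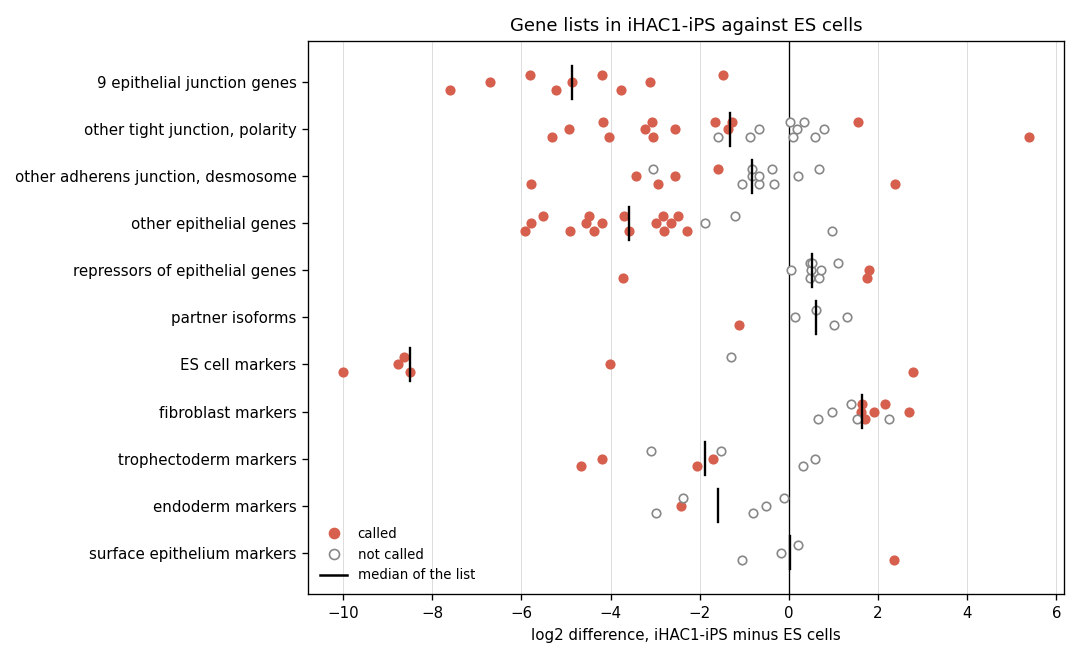
Log2 difference of iHAC1-iPS from ES cells (x axis) for each gene of 11 lists (y axis); filled points were called, open points were not, and bars are list medians. The 9 junction genes all lie left of 0, as do 18 of the 19 other epithelial genes, and the 11 fibroblast markers lie right of 0.

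Markers of other cells moved as well. Of 7 ES cell markers tested, 5 were called lower in iHAC1-iPS cells and 1, Pou5f1, higher. Pou5f1 codes for Oct4, which iHAC1 also carries, and vector and endogenous RNA were not told apart here. By quantitative PCR, the paper reports more vector RNA than endogenous RNA of the reprogramming factors in these clones. Of 11 fibroblast markers, 6 were called higher and 0 lower, with Col3a1 higher by 2.68, Col1a1 by 2.15 and Pdgfrb by 1.91. Without B6ES, and likewise with slide as a block, 0 of the 11 were called. In a fit of the compared groups alone 1 was called, and without 1-A3 or without 1-D6 3 were. Without TT2 or under normexp 7 were called, and 8 with a strict filter on dim probes. Against iHAC-free iPS cells 1 of the 11, Pdgfrb, was called higher (8.86% of all probes), while all 9 junction genes were called lower. Of 8 trophectoderm markers 4 were called lower, among them Cdx2, measured in 2 of the 4 clones and 11.5-fold lower with the floor, the keratin gene Krt7, also on the epithelial list, with a difference of -4.20, and Elf5, at least 1.04-fold lower and measured in 0 of the 4. Without B6ES, and likewise with slide as a block, 0 of these were called. Of 6 endoderm markers 1, Sox7, was called lower, and of 4 markers of surface epithelium 1, Trp63, was called higher, at least 1.56-fold, with no ES array measuring it. Trp63 was not called under normexp background correction. Sox7 was not called there, under quantile normalization, with slide as a block, without B6ES, without TT2 or without 1-A3. The part of these cells in the levels of the 9 genes was not tested.

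Across the 16 arrays the 9 genes moved together. The correlation of each gene with the mean of the 9 after centring was between 0.90 (Cldn3) and 0.997 (Cldn7), a description over arrays that share groups. Each gene was itself part of that mean, which raises its correlation. The 5 genes whose pattern was most like that mean by Pearson's r were Tnk1, a tyrosine kinase (Pearson's r = 0.995 over 16 arrays), AI661453 (r = 0.991), Prss8, a membrane serine protease on the list of other epithelial genes (r = 0.991), Kdf1, a gene of skin differentiation (r = 0.989), and Ell3, an elongation factor (r = 0.989). In all, 632 of 31387 probes reached r of 0.9, so these genes are the top of a large set. Their order depends on the measure: by Spearman's rank correlation 0 of these 5 were in the top 5 and 1, Prss8, was in the top 20, and without the MEF array 2, Tnk1 and Prss8, were in the top 5.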

How the data were processed

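RNA of 16 samples, 1 per array, was labelled with Cy3 and hybridised to Agilent Whole Mouse Genome arrays. The deposited scanner files hold spot intensity, background-subtracted and detrended within each array by the authors with Feature Extraction 10.7.1.1 or 10.7.3.1, and not scaled between arrays. The deposited value table holds log2 values that the authors normalized in GeneSpring GX 11 and that were centred per probe. It was used as an alternative. Probe positions are on mm9 per the file headers.

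Spot intensities were set relative to the 75th percentile of the array on the log2 scale, with control spots and spots with outlier flags left out, and spots of a probe were averaged. Probes well above background on at least 1 array were kept (31415 of 41174). Groups were compared with limma 3.58.1 (R 4.3.3), in 1 fit of all 16 arrays with 6 groups, with Benjamini-Hochberg adjustment over all tested probes. A probe was called at an adjusted p under 0.05 and at least 2-fold. The fit was tested on simulated data with 200 changed probes. Genes with several probes are given by the probe of highest mean. Tables and plots were made with Python 3.11.15, numpy 2.4.6, pandas 2.3.3 and matplotlib 3.10.9. Levels of 1 probe were not set against those of another.

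The 9 genes and the lists of other genes were chosen with earlier results of these data known. From each other list, at most the 3 called genes of largest difference in each direction are named, besides Ap1m1, Esrp2, Snai1, Snai2, Zeb1, Zeb2 and Cdh2. Alternatives were the deposited value table, quantile normalization, normexp (offset 50), other filters on dim probes, slide as a block, fits of the compared groups alone and each array left out in turn, and a block for the clone of origin. The ES cell markers Nanog and Fgf4 were not analysed here.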

Additional observations from a re-analysis of the deposited data

Results flagged for a closer look

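The clone 2-C6 stood apart from the other 3 iHAC2-iPS clones in 2 of the 9 genes. Cdh1 was at 3.64 there on the log2 scale, with the nearest other clone at 4.43. Cldn4 was at -2.18, with the nearest other clone at -0.62. In both, the gap took up more of the range of the 4 clones than Dixon's 95% value allows. Of 27 groups of 4 examined, 2 exceeded that value. Chance alone gives about 1 in 20, or 1.35 of 27, so the count is close to that of chance. The reason was not tested.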

How the results depend on the processing

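Against ES cells, the 9 genes called lower in iHAC1-iPS cells became 3 in a fit of the compared groups alone (Ap1m2, Cldn4 and Cldn7), and 3 to 9 with single arrays left out: 3 without B6ES, 5 without TT2 (Esrp1, Ap1m2, Cldn4, Cldn7 and Ocln). With slide as a block, and likewise without 1-D6, the calls of Cdh1, Cldn3 and Cldn6 were lost, and without 1-A3 or 1-C3 that of Cldn3. Under normexp 8 remained, as Ocln differed by -0.78, under 2-fold. The direction stayed lower for all 9 genes under every one of these settings. For iHAC2-iPS against ES cells the count of 1 became 0 with the compared groups alone and 0 to 1 with single arrays left out, Cldn3 having limma's adjusted p = 0.136, 0.0679 without B6ES and 0.129 without TT2. Counts of iHAC1-iPS against iHAC2-iPS and against iHAC-free iPS cells were 9 to 9 with single arrays left out, and the other counts 0 to 0. Under normexp the call of Ocln against iHAC-free iPS cells was lost, and the median of all probes moved to 0.19 there and to -0.16 for iHAC-free iPS against ES cells, where those of the 9 genes were -3.26 and 0.05. At 2-fold in place of 4-fold, 4 genes passed over MEFs in iHAC1-iPS cells, among them Esrp1, whose MEF signal was not well above background. The share of all probes past 2-fold was not counted. With Spearman's rank correlation the lowest of the 5 pattern neighbours was at 0.897, and 0 of them were in the top 5. With the clone of origin as a replicate block, 0 genes were called for iHAC2-iPS against iHAC-free iPS lines. Deviations of same-origin arrays correlated at -0.219 to 0.0800 and of other pairs at -0.105 to 0.216, so the origin did not pair the arrays in the data. Small uncalled differences could change sign when an ES line was left out. The iHAC-free iPS mean of Cdh1, 4.07, lay between TT2 (3.77) and B6ES (4.48). Over single genes and comparisons, 736 alternative values kept the call or the lack of one, 29 lost the call, and no called difference changed direction. The cause of these losses was not tested, beyond the fewer arrays in some fits. Signals not well above background in 1 to 3 of the 4 iHAC1-iPS clones limit Cdh1, Cldn6, Esrp1, Ap1m2, Cldn4 and Ocln.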
